A study of Mus musculus with 52 samples.

Results

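The genes described here are 7 surface and junction genes that endothelial cells (ECs) express in nearly every vascular bed: Pecam1, Cdh5, Esam, Icam2, Cd34, Egfl7 and Emcn. They are listed by name, with no threshold on a measured value, and are 7 of the 49585 annotated mouse genes with a transcript in the deposited tables. The study asked what happens to ECs of the brain and pituitary when beta-catenin, the transcriptional effector of the canonical Wnt pathway, is stabilized in them. ECs were obtained from adult male mice in either of 2 ways. In the first, cells carrying the Tie2-GFP transgene, which labels ECs with green fluorescent protein, were sorted from the cerebellum and, separately, from the anterior and from the posterior pituitary, and the GFP-negative cells of the same dissociation were kept for comparison. In the second, RiboTag mice, whose ECs carry an epitope-tagged ribosomal protein after Cre recombination, gave ribosome-bound RNA from the cortex and the choroid plexus, with the input RNA of the whole homogenate beside it.

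The sorted WT mice carried Tie2-GFP alone, and the sorted stabilized mice carried Tie2-GFP, the Pdgfb-CreER transgene and the BcatEx3fl allele, from which Cre removes exon 3 of Ctnnb1. For the sorted stabilized mice the methods give 100 µg of 4-hydroxytamoxifen (4HT) at postnatal day 10, sorting between days 30 and 90, and the pituitaries of 20 to 30 mice in each library. The RiboTag WT mice carried RiboTag and Pdgfb-CreER, so that these controls share Cre and its 4HT induction with the stabilized RiboTag mice, which carried BcatEx3fl in addition. They were 6 to 8 weeks old, and choroid plexi of 3 or 4 mice were pooled. Each of the 20 RNA groups held 2 libraries, and each of the 6 ATAC-seq groups, which were GFP-positive ECs of the 3 sorted tissues, also held 2. Pdgfb-CreER acts in ECs, and Tie2-GFP can also label some blood cells. One GFP-positive library, replicate 2 of the stabilized anterior pituitary, is named as anterior in its title and as posterior in its tissue entry, and was treated here as anterior. It held 2676 TPM of Gh and 746 of Prl, the hormone genes of the anterior lobe, against 3467 and 502 in replicate 1, and 4.33 to 11.0 and 2.24 to 3.42 in the stabilized posterior pituitary.

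Pecam1 (CD31) and Cdh5 (VE-cadherin) hold neighbouring ECs together, Cdh5 as the cadherin of the endothelial adherens junction, to whose cytoplasmic tail beta-catenin binds, and Pecam1 as a homophilic immunoglobulin-family receptor at the same cell borders. Esam is an immunoglobulin-family adhesion molecule of the tight junction, and Icam2 is a ligand of leukocyte beta2 integrins on the resting endothelium. Cd34 and Emcn (endomucin) are sialomucins of the luminal surface, and Egfl7 is a secreted protein of the endothelial matrix that also hosts miR-126 in an intron. They are used as general markers of ECs, in contrast to genes of the blood-brain barrier, which vary between vascular beds.

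Depth was 12157485 to 37529274 estimated counts in the 24 sorted libraries and 6409013 to 21399125 in the 16 RiboTag libraries. The summed level of 10 other endothelial markers was 495 to 2260 TPM (transcript abundance scaled to length and depth) in GFP-positive cells and 1.5 to 36 TPM in GFP-negative cells. Markers of other cells were present in the EC fractions. GFP-positive cells of the WT cerebellum held 5423 and 51205 TPM of 3 erythrocyte genes, GFP-positive cells of the anterior pituitary held 4035 to 6747 TPM of 6 hormone genes, and bound RNA of the choroid plexus held 11841 to 19923 TPM of 4 epithelial genes. In the bound RNA of the WT cortex all 7 members were lower in replicate 2 than in replicate 1, and their summed level was 1010 TPM in replicate 1 and 372 TPM in replicate 2. Member counts that compare WT cortex bound RNA with stabilized cortex or WT choroid plexus are given with and without each of these libraries, and changes in the partner counts are mentioned.

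Chromatin at the members' start sites was accessible in every GFP-positive library. All 7 genes had an ATAC-seq peak within 500 bp of an annotated start in 12 of 12 libraries, whereas 26.7 to 32.2% of all genes and 51.6 to 59.6% of protein-coding genes had one. The peak at Cd34 was the highest, with a fold enrichment over background of 9.44 to 19.7 (median 13.2), followed by Icam2 with 3.32 to 11.6 (median 8.04) and Cdh5 with 3.70 to 9.93 (median 7.77). The medians of the other genes were 7.29 for Pecam1, 7.21 for Esam, 5.94 for Egfl7 and 5.80 for Emcn. The highest values of Egfl7 (7.87) and Emcn (7.48) lay below the lowest of Cd34, while every other pair of ranges overlapped. With a fold enrichment above 4 required in place of 2, Cd34 and Esam kept a peak in all 12 libraries, Pecam1, Cdh5, Icam2 and Egfl7 in 11 and Emcn in 10. The peak lists hold no read counts, so heights were not tested between tissues or genotypes.

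**Figure D1:**
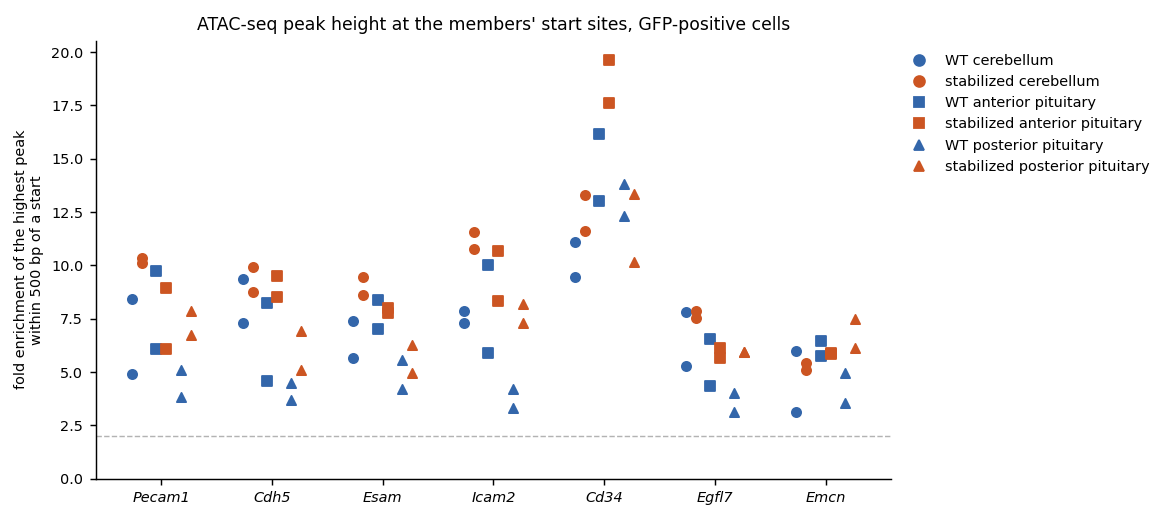
Fold enrichment over background (vertical axis) of the highest ATAC-seq peak within 500 bp of a start of each member in each of the 12 GFP-positive libraries, with a point per library, colour for genotype, symbol for tissue and a dashed line at the minimum of 2 used for a peak. All points lie above the line, and those of Cd34 run from 9.44 to 19.7.

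The promoters of the 3 members found in the RefSeq promoter table (build GRCm38.p6) are printed here because they lie under or beside these peaks, each as 300 bases, from 250 bases before to 50 bases after the start. Pecam1, Cdh5, Esam and Icam2 were not in the table. Capitals mark AGGAAG, a sequence with the GGAA core that the endothelial ETS factors bind, and ATCAAAG, a sequence of the kind that the TCF/LEF partners of beta-catenin bind, on either strand (CTTCCT and CTTTGAT on the other). The Cd34 promoter is at chr1:194938571-194938870, the Emcn promoter at chr3:137340828-137341127, and the Egfl7 promoter with an accessible peak at chr2:26583615-26583914. A second Egfl7 promoter, upstream of it at chr2:26580833-26581132, is shown for contrast. All are on the plus strand.
Cd34: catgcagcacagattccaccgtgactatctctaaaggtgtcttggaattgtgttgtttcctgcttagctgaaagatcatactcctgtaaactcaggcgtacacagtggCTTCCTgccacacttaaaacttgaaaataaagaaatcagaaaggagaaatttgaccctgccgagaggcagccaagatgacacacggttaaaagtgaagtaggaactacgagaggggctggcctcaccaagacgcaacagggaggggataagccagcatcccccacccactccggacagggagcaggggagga
Emcn: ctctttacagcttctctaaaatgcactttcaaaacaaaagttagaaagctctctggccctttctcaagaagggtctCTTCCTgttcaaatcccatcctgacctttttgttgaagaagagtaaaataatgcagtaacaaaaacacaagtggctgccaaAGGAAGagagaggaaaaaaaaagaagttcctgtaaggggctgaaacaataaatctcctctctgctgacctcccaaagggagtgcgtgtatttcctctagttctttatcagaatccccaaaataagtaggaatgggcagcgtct
Egfl7, start with a peak: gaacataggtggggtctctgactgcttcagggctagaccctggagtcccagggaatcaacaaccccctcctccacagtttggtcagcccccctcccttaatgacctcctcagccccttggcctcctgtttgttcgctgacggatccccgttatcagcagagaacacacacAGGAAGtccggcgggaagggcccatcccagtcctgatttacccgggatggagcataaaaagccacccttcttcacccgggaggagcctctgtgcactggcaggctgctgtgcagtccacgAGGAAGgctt
Egfl7, upstream start: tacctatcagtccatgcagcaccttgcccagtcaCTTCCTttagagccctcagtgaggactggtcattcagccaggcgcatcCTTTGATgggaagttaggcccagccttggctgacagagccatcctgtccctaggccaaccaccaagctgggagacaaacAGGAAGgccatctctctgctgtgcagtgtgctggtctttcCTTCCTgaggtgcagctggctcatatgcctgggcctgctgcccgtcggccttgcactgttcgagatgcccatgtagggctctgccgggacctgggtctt
The Cd34, Emcn and first Egfl7 windows overlapped a peak in 12 of 12 libraries, with fold enrichments of 3.13 to 7.87 at Egfl7. The upstream Egfl7 window overlapped one in 3 libraries, at 2.17 to 2.78. The last Egfl7 window in the table, at chr2:26586386-26586685, overlapped one in 4 libraries, with fold enrichments of up to 2.91, and held no marked letters. AGGAAG occurred 1 time at Cd34 2 times each at Emcn and at the first Egfl7 start and 3 times at the upstream Egfl7 start, and 35.4% of 32851 promoter windows of the same length held it. ATCAAAG occurred 1 time, in the upstream Egfl7 window, whose peaks were few, and 3.73% of all windows held it. CGGAAG and TTCAAAG, searched in the same way, occurred in none of these 4 windows and in 16.9% and 5.14% of all windows. These letters are a description of the windows and do not show binding.

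In GFP-positive ECs the junction genes stood at the following levels, in TPM, which are scaled to transcript length, although short transcripts carry much of the TPM of Esam and Egfl7. Pecam1 stood at 320 and 338 TPM in the 2 WT libraries of the cerebellum, 247 and 249 in the anterior pituitary and 1031 and 748 in the posterior pituitary. Cdh5 stood at 160 and 165 in the cerebellum, 225 and 311 in the anterior pituitary and 464 and 370 in the posterior pituitary. Both cell-border genes were therefore highest in both posterior pituitary libraries, with no overlap with the other tissues. Esam stood at 1478 and 1632 in the cerebellum, 973 and 2225 in the anterior pituitary and 1746 and 695 in the posterior pituitary, so that its 2 replicates lay far apart in both parts of the pituitary on this scale. By read counts scaled to the depth of the library (CPM), Esam was at 597.5 ± 67.2 (SD, n = 2) in the cerebellum, 447 ± 100.1 in the anterior and 526 ± 1.54 in the posterior pituitary. Icam2 stood at 58.0 and 69.5 in the cerebellum, 123 and 95.2 in the anterior pituitary and 196 and 80.0 in the posterior pituitary, the lowest member by group mean in each tissue.

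The sialomucins and the matrix protein lay between these. Cd34 stood at 219 and 258 TPM in the cerebellum, 143 and 178 in the anterior pituitary and 552 and 316 in the posterior pituitary. Emcn stood at 166 and 155 in the cerebellum, 599 and 697 in the anterior pituitary and 1223 and 583 in the posterior pituitary. Emcn thus separated the cerebellum from both parts of the pituitary, whose ranges overlapped each other. Egfl7 stood at 664 and 126 in the cerebellum, 521 and 608 in the anterior pituitary and 767 and 942 in the posterior pituitary, and its 2 cerebellar libraries lay further apart than the other tissues' did. In the GFP-negative cells of the 3 WT tissues no member passed 23.3 TPM, and the highest value was that of Egfl7 in the anterior pituitary.

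In ribosome-bound RNA the levels were lower. In the 2 WT cortex libraries Pecam1 stood at 182 and 94.8 TPM, Cdh5 at 43.4 and 15.4, Esam at 421 and 91.3 and Icam2 at 16.2 and 11.6. In the same libraries Cd34 stood at 151 and 79.4, Egfl7 at 128 and 43.3 and Emcn at 68.0 and 35.8. Replicate 1 was the higher for every member. In the WT choroid plexus Pecam1 stood at 83.9 and 104 TPM, Cdh5 at 38.0 and 37.5, Esam at 167 and 171, Icam2 at 8.64 and 19.9, Cd34 at 42.6 and 71.1, Egfl7 at 34.4 and 44.6 and Emcn at 66.4 and 104. Esam was first and Icam2 last by mean TPM in all 10 EC groups, WT and stabilized.

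**Figure D2:**
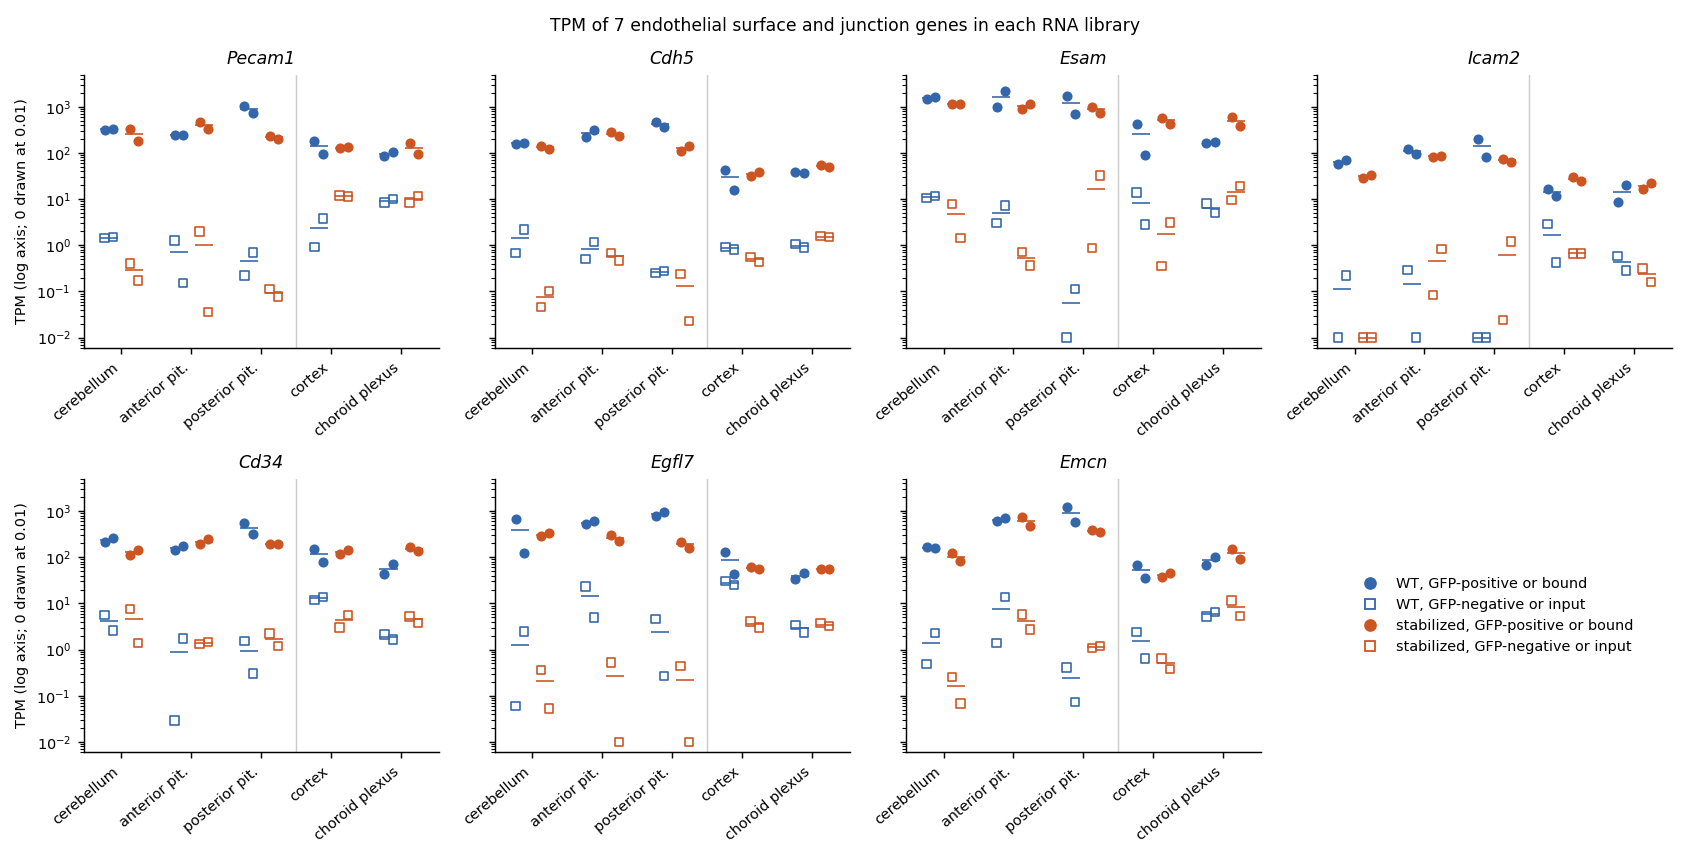
TPM of each member (vertical log axis) in every RNA library, by tissue, fraction and genotype, with 1 point per library and a line at each group's mean; a TPM of 0 is drawn at 0.01. GFP-positive and bound libraries lie above the GFP-negative and input libraries of the same tissue for every member.

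The first place of Esam depended on a short transcript. Salmon, the program that made the values, divides each transcript's reads by an effective length, and for Esam-206, a nonsense-mediated decay transcript of 216 bases, that length was 12 bases in all GFP-positive libraries. Esam-206 took 1.82 to 9.61% of the Esam reads in GFP-positive ECs but 55.8 to 88.6% of the Esam TPM (median 81.4%). The full-length Esam-201, of 1865 bases, took 85.6 to 98.2% of the reads. Egfl7 had a similar transcript, the retained-intron Egfl7-218 of 307 bases, with up to 18.3% of the reads and up to 56.2% of the TPM. Cdh5 was at the other end, with 99.8 to 100% of its reads on Cdh5-201.

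TPM was therefore also summed over transcripts of at least 1000 bases, a choice made after the values were seen. WT cerebellar ECs then held 227 ± 51.7 TPM of Esam (SD, n = 2), 221 ± 15.4 of Pecam1, 192 ± 38.3 of Cd34, 157 ± 2.95 of Cdh5, 126 ± 11.9 of Emcn, 76.0 ± 10.7 of Egfl7 and 41.4 ± 1.64 of Icam2, and Esam, Pecam1 and Cd34 were within their spread of each other. Emcn was first in the anterior pituitary of both genotypes, at 480 ± 1.22 TPM in WT, and in the choroid plexus of both genotypes, at 46.0 ± 13.8 in WT. Pecam1 was first in the WT posterior pituitary, at 571 ± 176, within the spread of Emcn at 527 ± 321 and Cd34 at 418 ± 189. Icam2 stayed last in 9 of 10 groups, the exception being Egfl7 in WT cortex bound RNA, at 4.69 ± 1.39 against 13.9 ± 3.23 for Icam2. Gene totals of reads are less sensitive to this, and all tests below were run on reads.

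All 7 members were enriched in ECs over the surrounding cells in every tissue and both genotypes. A gene was called when edgeR's quasi-likelihood test gave a Benjamini-Hochberg adjusted p under 0.05 over all genes tested and the change was at least 2-fold. In the 6 sorted comparisons, 7 of 7 members were higher in GFP-positive than in GFP-negative cells. The share of all genes called higher was 4.46% in the WT cerebellum, 7.26% in the stabilized cerebellum, 5.46% in the WT anterior pituitary, 5.14% in the stabilized anterior pituitary, 7.07% in the WT posterior pituitary and 5.49% in the stabilized posterior pituitary, against 7 of 7 members in each. Bound against input RNA gave 7 of 7 members higher in the WT cortex, where 7.46% of all genes were called higher, the stabilized cortex with 10.1%, the WT choroid plexus with 8.67% and the stabilized choroid plexus with 9.35%. The EC fraction and its surrounding fraction did not overlap for any member in any of these 10 comparisons. No share of all genes without overlap is given beside such statements, here or below, so they only describe the values. In bulk samples, fewer cells of a type and less RNA per cell cannot be told apart.

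The enrichment of the median member was 6.44 on the log2 scale in the WT cerebellum, 7.71 in the WT anterior pituitary and 10.79 in the WT posterior pituitary, where the medians of all genes tested were -0.12, -0.03 and 0. In stabilized mice it was 8.64, 8.08 and 8.80, with medians of all genes of 0, -0.20 and -0.12. In RiboTag RNA it was 4.52 in the WT cortex, 4.94 in the stabilized cortex, 3.72 in the WT choroid plexus and 4.22 in the stabilized choroid plexus. Sorted and RiboTag enrichments are not on 1 scale, because GFP-negative cells lack the sorted ECs whereas input RNA still contains theirs.

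Cdh5 shows the sorted enrichment most plainly, since nearly all its reads fall on 1 transcript. Its 2 WT libraries gave 0.671 and 2.20 TPM in GFP-negative against 160 and 165 in GFP-positive cells of the cerebellum, 0.498 and 1.18 against 225 and 311 in the anterior pituitary, and 0.248 and 0.276 against 464 and 370 in the posterior pituitary. The log2 enrichments were 6.31 (SE 0.88, adjusted p = 9.73e-05), 8.27 (SE 0.96, adjusted p = 1.48e-05) and 10.48 (SE 1.05). The GFP-negative level was lowest in the posterior pituitary, where the GFP-positive level was highest. Pecam1 rose by 7.30 (SE 0.92), 9.15 (SE 1.0) and 10.97 (SE 1.07) in the same order of tissues, and Emcn by 6.15 (SE 0.88), 7.67 (SE 0.94) and 10.79 (SE 1.07).

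Several members were at or near 0 reads in GFP-negative cells. Icam2 had 0 reads in the stabilized cerebellum and 0 in the WT posterior pituitary, summed over 2 libraries. Against a floor of 3 counts over the group, Icam2 was at least 558-fold higher in GFP-positive cells of the stabilized cerebellum and at least 2423-fold higher in those of the WT posterior pituitary. Egfl7 had 2 GFP-negative reads in the stabilized cerebellum, a ratio of 3187 (95% counting interval 882 to 26318), and Esam had 3 in the WT posterior pituitary, a ratio of 9806 (95% counting interval 3355 to 47552). These intervals cover counting error only, and the libraries were amplified without molecular identifiers. The lowest sorted enrichments were those of Esam, 5.49 (SE 0.56) in the WT anterior pituitary and 5.52 (SE 0.56) in the stabilized cerebellum.

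**Figure D3:**
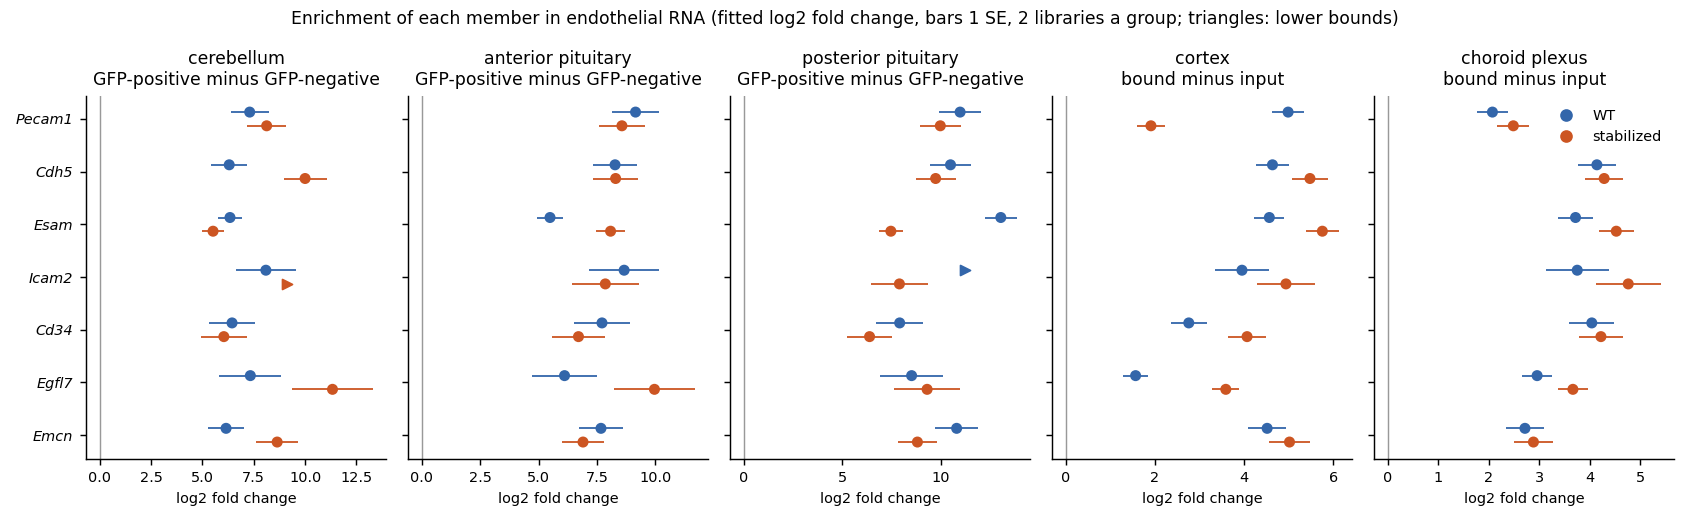
Log2 enrichment (horizontal axis) of each member (vertical axis) in GFP-positive over GFP-negative cells and in bound over input RNA, with a panel per tissue, colour for genotype, bars of 1 SE from edgeR, and triangles without bars at the lower bound for Icam2 where GFP-negative reads were 0. The points lie above 0 in all 5 panels, from 1.56 for Egfl7 in the WT cortex to 13.04 for Esam in the WT posterior pituitary, and the triangles are at 9.12 in the stabilized cerebellum and 11.24 in the WT posterior pituitary.

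In ribosome-bound RNA of the WT cortex Egfl7 was enriched least, with 30.3 and 24.9 TPM in input against 128 and 43.3 in bound RNA, a log2 difference of 1.56 in reads (SE 0.28, adjusted p = 0.00181). With gene length as an offset it was 1.48 with an adjusted p of 0.0606, the 1 member of these 10 comparisons to lose its call under an alternative. In the stabilized cortex Egfl7 was enriched by 3.59 (SE 0.30), and its input level there was 4.07 and 2.98 TPM. Cdh5, Esam and Emcn had log2 enrichments of 4.64 (SE 0.38), 4.56 (SE 0.34) and 4.52 (SE 0.43) in the WT cortex, and of 4.14 (SE 0.37), 3.72 (SE 0.35) and 2.72 (SE 0.39) in the WT choroid plexus. Cd34 and Egfl7 went the other way, Cd34 with 2.76 (SE 0.40) in the WT cortex and 4.04 (SE 0.44) in the WT choroid plexus, and Egfl7 with 2.96 (SE 0.30) in the WT choroid plexus. The differences between the tissues were not tested.

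Pecam1 stood out in RiboTag RNA through its input. Its enrichment was 4.99 (SE 0.36) in the WT cortex but 1.91 (SE 0.31) in the stabilized cortex, 2.07 (SE 0.31) in the WT and 2.49 (SE 0.32) in the stabilized choroid plexus. In input RNA the Pecam1 TPM was 0.923 and 3.82 in the WT cortex and 11.9 and 11.5 in the stabilized cortex, and in the choroid plexus 8.42 and 10.0 in WT and 8.51 and 11.8 in stabilized mice. Input RNA of the stabilized cortex accordingly held more Pecam1 than that of the WT cortex, by 3.99 on the log2 scale (SE 0.18, adjusted p = 2.01e-05), the 1 member called in the cortex input, where 11.8% of all genes were called.

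These input reads lay on a single transcript. Pecam1-208 is a retained-intron transcript with 1 exon of 2142 bases, inside the Pecam1 gene, at chr11:106661185-106663326 on the minus strand (GRCm38). It held 6 and 12 of the Pecam1 reads in the 2 WT cortex inputs, or 5.39 and 7.46%, but 850 and 1018 in the stabilized cortex inputs, or 94.4 and 94.3%. In choroid plexus input it held 75.0 and 75.3% of the Pecam1 reads in WT and 67.6 and 79.2% in stabilized mice. In bound RNA of the cortex it held 0 and 2 reads in WT and 269 and 485 in stabilized mice, whereas in GFP-positive cells it held at most 1.5% of the Pecam1 reads.

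With that transcript left out, an alternative added after seeing the data, the Pecam1 enrichment became 5.08 (SE 0.38) in the WT cortex, 5.91 (SE 0.40) in the stabilized cortex, 3.94 (SE 0.36) in the WT choroid plexus and 4.27 (SE 0.36) in the stabilized choroid plexus. The genotype difference in cortex input became -0.07 (SE 0.24, adjusted p = 0.867 by edgeR). The WT cortex was thus the 1 input group with few reads on Pecam1-208. Whether these reads come from Pecam1 RNA was not tested.

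**Figure D4:**
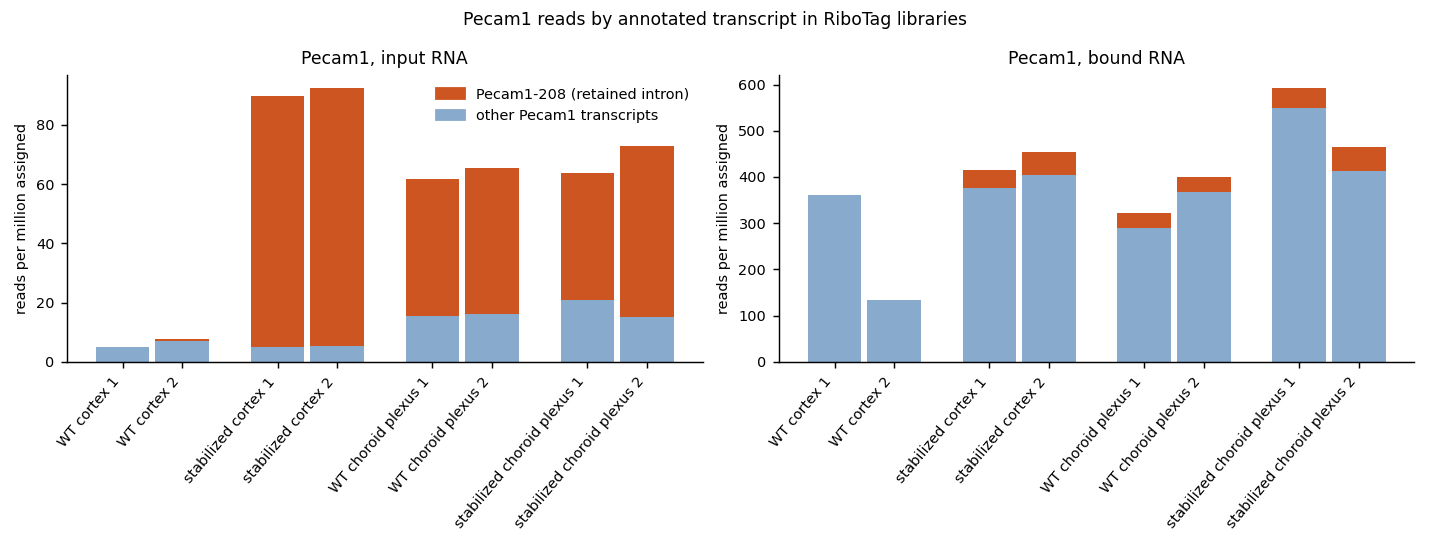
Pecam1 reads (vertical axis, from 0, in CPM) in every RiboTag library, input on the left and bound on the right, stacked by transcript, with Pecam1-208 in orange and the other Pecam1 transcripts in blue. Pecam1-208 makes up 94.4 and 94.3% of the bar in the 2 stabilized cortex inputs and 5.39 and 7.46% in the 2 WT cortex inputs.

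Between tissues, the WT comparison asked how far general EC genes vary between vascular beds with and without a barrier. Emcn differed most. Its normalised read count, in CPM (read counts scaled to the depth of the library), was 258 and 275 in GFP-positive cells of the cerebellum, 1071 and 1025 in the anterior pituitary and 1263 and 835 in the posterior pituitary. It was lower in the cerebellum than in the anterior pituitary by 1.97 on the log2 scale, a log2 fold change of -1.97 (SE 0.27, adjusted p = 0.000679 by edgeR), and than in the posterior pituitary by a log2 fold change of -1.98 (SE 0.27, adjusted p = 0.000814). The anterior and posterior pituitary differed in Emcn by -0.0013 (SE 0.27).

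Pecam1 and Cdh5 were also lower in the cerebellum than in the posterior pituitary. The normalised counts of Pecam1 were 747 and 935 in the cerebellum and 1746 and 1901 in the posterior pituitary, a log2 fold change of -1.12 (SE 0.24, adjusted p = 0.0185). Those of Cdh5 were 1134 and 1510 against 2586 and 2975, a log2 fold change of -1.07 (SE 0.27, adjusted p = 0.0413). The cerebellum thus had 3 lower members against the posterior pituitary, where 4.4% of all genes were called, and 1 against the anterior pituitary, where 5.26% were. In a fit of these 4 libraries alone none of the 3 was called against the posterior pituitary, at log2 fold changes of -1.11 for Pecam1 (adjusted p = 0.263), -1.07 for Cdh5 (adjusted p = 0.309) and -1.97 for Emcn (adjusted p = 0.0603). Fits of the compared groups alone called 0 to 2.71 times the main number of all genes over 27 comparisons. The number in this comparison is not given here, so whether the loss is particular to these members cannot be told. With gene length as an offset 1 of the 3 was called, where the number of all genes called was 0 to 1.49 times the main number over 28 comparisons. Egfl7, at -0.66 against the posterior and -0.56 against the anterior pituitary, moved further with a library left out. Its log2 fold changes then ran from -1.33 to -0.22 and from -1.22 to -0.11. Without WT cerebellum replicate 1, Pecam1 was at -0.98 (adjusted p = 0.145) and Cdh5 at -0.89 (adjusted p = 0.249), and without WT posterior pituitary replicate 2 Cdh5 was at -0.96 (adjusted p = 0.0817). Beside these differences, mural-cell genes stood at 560 to 677 TPM in GFP-positive cells of the WT cerebellum, 169 to 194 in the anterior and 71.4 to 150 in the posterior pituitary, and hormone genes at 31.9 to 35.4, 4356 to 6747 and 473 to 3343 TPM. Their part in the result was not tested.

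Between the anterior and the posterior pituitary 0 members were called, where 0.994% of all genes were. Unadjusted p was under 0.05 for 2 members, and DESeq2 called 2, with 5.81% of all genes. Pecam1 was nearest, at a log2 fold change of -1.11 (SE 0.24, adjusted p = 0.0546), and Cd34 next at -1.01 (SE 0.28, adjusted p = 0.144). By mean TPM, the posterior pituitary was highest for 6 of 7 members, Esam being the exception, but the order of the 3 tissues was that of the mean in only 5 of 7 members in replicate 1 alone and in 5 of 7 in replicate 2 alone. Summed over long transcripts the order was the same for 4 of 7. By mean CPM, Pecam1, Cdh5, Cd34 and Egfl7 were also highest in the posterior pituitary. Icam2 was at 132 ± 52.9 CPM in the anterior and 118 ± 54.7 in the posterior pituitary, and Emcn at 1048 ± 33.1 and 1049 ± 303 (SD, n = 2). No share of all genes is given beside these orders.

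In bound RNA, the WT cortex and choroid plexus differed in 2 members, 1 in each direction, where 29.7% of all genes were called. Emcn was lower in the cortex, with normalised counts of 69.0 and 43.1 against 131 and 208 and a log2 fold change of -1.60 (SE 0.32, adjusted p = 0.00455 by edgeR). Esam was higher there, with 174 and 76.0 against 46.9 and 66.7, a log2 fold change of 1.14 (SE 0.37, adjusted p = 0.0422). With the replicate number as a block Esam was no longer called (1.07, adjusted p = 0.0622), and with gene length as an offset its direction turned (-0.59). Without replicate 1 of the WT cortex the Esam difference was 0.43 (adjusted p = 0.341), and the call was also lost without replicate 1 (0.79) or replicate 2 (1.33) of the WT choroid plexus. Without that cortex library 4 members were called, all lower in the cortex and with 23.7% of all genes called, with Pecam1 at -1.35, Cdh5 at -1.87, Egfl7 at -1.06 and Emcn at -1.97, and without cortex replicate 2 there were 3, with 23.0% of all genes called, Esam at 1.56, Cd34 at 1.04 and Emcn at -1.35. DESeq2 called 4 with all libraries, and 34.9% of all genes. Egfl7 passed the test but not the 2-fold minimum, at -0.97 (SE 0.26, adjusted p = 0.0194). A share of 2 of 7 members is near the share of all genes.

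Stabilization of beta-catenin was compared with WT in the same EC fractions. In GFP-positive cells of the cerebellum 0 of 7 members were called, where 0.648% of all genes were, with 0 at an unadjusted p under 0.05 and 0 called by DESeq2, which called 4.3% of all genes. The fold changes ran from -0.76 (SE 0.35) for Icam2 to -0.18 (SE 0.24) for Pecam1. All 7 were below 0, as were 8 of the 10 other endothelial markers. The median of all genes was -0.08, so most genes tested were below 0 too. Cdh5, the partner of beta-catenin at the junction, stood at 1134 and 1510 normalised counts in WT and 1195 and 1089 in stabilized mice, a log2 fold change of -0.21 (SE 0.27, adjusted p = 0.852). Its 2 genotypes overlapped by normalised count. By TPM, which was not tested, Cdh5 was at 160 to 165 in WT and 120 to 144 in stabilized cells, with no overlap. Esam, Icam2, Cd34 and Emcn were also lower by TPM without overlap, whereas the genotypes overlapped for Pecam1 and Egfl7.

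In GFP-positive cells of the anterior pituitary 0 of 7 members were called, where 0.458% of all genes were, with 1 at an unadjusted p under 0.05 and 0 called by DESeq2, which called 2.78% of all genes. Pecam1 stood at 836 and 854 normalised counts in WT and 933 and 790 in stabilized mice, a log2 fold change of 0.03 (SE 0.24). Cdh5 stood at 1785 and 2303 in WT and 2023 and 2092 in stabilized mice, a log2 fold change of 0.01 (SE 0.27). The changes of the 7 members ran from -0.71 (SE 0.31) for Egfl7 to 0.47 (SE 0.28) for Cd34. Under the alternatives that kept all libraries, Pecam1 reached 0.62, and no member was called. Its TPM, which was not tested, was 247 to 249 in WT and 332 to 461 in stabilized cells, with no overlap. By TPM Cd34 was also higher without overlap, whereas Icam2 and Egfl7 were lower without overlap. Without the stabilized library whose tissue entry reads posterior, the log2 fold change turned sign for Cdh5, to -0.0062, and for Emcn, to 0.12. The lowest log2 enrichment of a member over GFP-negative cells of stabilized mice, with any 1 library left out, was 6.28, for Cd34. Of the 10 other endothelial markers 2 were below 0 by read counts and 1, Vwf, was called higher. Macrophage and leukocyte genes stood at 21.4 to 26.7 TPM in WT and 80.9 to 87.4 in stabilized GFP-positive cells, and microglial genes at 2.57 to 4.52 and 25.0 to 43.2. Their part in these values was not tested.

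In the posterior pituitary 1 of 7 members fell, where 1.79% of all genes were called. Pecam1 stood at 1746 and 1901 normalised counts in WT and 835 and 907 in stabilized GFP-positive cells, a log2 fold change of -1.07 (SE 0.24, adjusted p = 0.0476 by edgeR). Cdh5 stood at 2586 and 2975 in WT and 1452 and 1717 in stabilized cells, a log2 fold change of -0.81 (SE 0.27, adjusted p = 0.185). For both genes the 2 genotypes did not overlap, and only Pecam1 passed the test. DESeq2 also called 1 member, with 6.68% of all genes. The call of Pecam1 lay close to the threshold, and it was lost in a fit of the 4 libraries alone (-1.04, adjusted p = 0.22), with gene length as an offset (-1.17, adjusted p = 0.142), and with 1 library left out. Without stabilized replicate 1 it was -1.01 (adjusted p = 0.366), without stabilized replicate 2 it was -1.13 (adjusted p = 0.197), and without WT replicate 2 it was -0.98 (adjusted p = 0.11).

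The other 5 members of the posterior pituitary ran from -0.60 (SE 0.31) for Egfl7 to 0.34 (SE 0.35) for Icam2 in normalised counts. TPM values, which were not tested, were lower in stabilized ECs for 4 of them. Emcn stood at 1223 and 583 TPM in WT and 391 and 354 in stabilized ECs, Cd34 at 552 and 316 against 193 and 193, Egfl7 at 767 and 942 against 217 and 162, and Icam2 at 196 and 80.0 against 75.5 and 63.7, each with no overlap. None of these 4 passed the test on counts, where Emcn was at -0.29 and Cd34 at -0.08, and for Icam2 the sign differed between the scales. Over long transcripts Cdh5 stood at 417 ± 66.6 TPM in WT and 122 ± 14.2 in stabilized ECs (SD, n = 2). The summed TPM of the 10 other endothelial markers was 2149 and 2260 in WT and 495 and 614 in stabilized GFP-positive cells. Most of that difference lay in Flt1, at 1103 and 1054.5 against 99.3 and 146.5, and Kdr, at 555 and 536 against 76.1 and 88.8, whereas Cldn5 had higher TPM in stabilized cells. By read counts 6 of the 10 were below 0, with Kdr called lower at -1.89 (SE 0.32, adjusted p = 0.0118) and Cldn5 called higher. In the same cells macrophage and leukocyte genes stood at 0.661 and 10.7 in WT and 76.5 and 106 in stabilized cells. Their part in the result was not tested.

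In bound RNA of the cortex 1 of 7 members rose, where 6.32% of all genes were called. Egfl7 stood at 33.5 and 29.3 normalised counts in WT and 89.2 and 96.4 in stabilized mice, a log2 fold change of 1.56 (SE 0.26, adjusted p = 0.011). Icam2 stood at 25.9 and 17.2 in WT and 61.3 and 56.9 in stabilized mice, at 1.45 (SE 0.38, adjusted p = 0.0517). All 7 members had a positive sign, down to 0.34 (SE 0.31) for Emcn, where the median of all genes was -5.1e-15. DESeq2 called 3 members, with 11.2% of all genes. The TPM of Egfl7 did not follow, with 128 and 43.3 in WT and 60.4 and 55.2 in stabilized mice, which overlapped.

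The count in the cortex turned on a few libraries. Without WT replicate 1, the library with the higher levels, 6 of 7 members were called higher, where 6.66% of all genes were called in either direction, with Cdh5 at 1.97, Icam2 at 1.77, Pecam1 at 1.60, Esam at 1.40 and Cd34 at 1.11 beside Egfl7. Without WT replicate 2, the lower library, 1 was called, where 5.71% of all genes were, Egfl7 at 1.49 (adjusted p = 0.0221), with Cdh5 at 0.53 and Pecam1 at 0.34. Without stabilized replicate 1 or replicate 2 none was called, where 1.72 and 2.14% of all genes were, with Egfl7 at 1.58 (adjusted p = 0.0528) and 1.45 (adjusted p = 0.0655), and with gene length as an offset Egfl7 was at 0.46 (adjusted p = 0.650). Markers of other cells moved in the same bound RNA. Neuronal genes stood at 1049 to 1235 TPM in WT and 275 to 319 in stabilized libraries, oligodendrocyte genes at 1058 to 1113 and 157 to 166, and microglial genes at 903 to 1271 and 394 to 421, with ranges of the 10 endothelial genes at 429 to 821 and 427 to 441. Within that sum Cldn5 stood at 180 and 99.8 TPM in WT against 60.1 and 53.9, and Tek at 81.2 and 43.6 against 24.4 and 22.3, while Vwf stood at 35.1 and 20.1 against 78.5 and 60.9 and Sox18 at 9.85 and 10.1 against 25.3 and 25.8. By read counts 0 of the 10 were below 0 and 2 were called higher, Sox18 at 3.94 (SE 0.35, adjusted p = 0.000704) and Tie1 at 1.34 (SE 0.34, adjusted p = 0.0499). Their part in the result was not tested.

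In bound RNA of the choroid plexus 0 of 7 members were called, where 0.852% of all genes were, with 3 at an unadjusted p under 0.05 and 2 called by DESeq2, which called 3.82% of all genes. Esam stood at 46.9 and 66.7 normalised counts in WT and 194 and 184 in stabilized mice, a log2 fold change of 1.73 (SE 0.38, adjusted p = 0.0822). Cd34 stood at 99.7 and 128 in WT and 336 and 346 in stabilized mice, a log2 fold change of 1.58 (SE 0.32, adjusted p = 0.0669). By normalised count the genotypes did not overlap for any of the 7 members, with stabilized libraries the higher, and by TPM they did not overlap for Esam, Cd34, Cdh5 and Egfl7. The median change of all genes was -0.09, and the share of all genes without overlap is not given. These counts therefore describe the values and are no result about the members as a set. The TPM were 167 and 171 against 598 and 391 for Esam and 42.6 and 71.1 against 163 and 134 for Cd34. The other 5 lay between 0.35 (SE 0.37) for Pecam1 and 0.83 for Icam2 and Egfl7. Endothelial markers stood at 144 to 206 TPM in WT and 284 to 307 in stabilized bound RNA, epithelial markers at 18946 to 19923 and 11841 to 13414, and macrophage and leukocyte genes at 59.2 to 90.8 and 196 to 199. Their part in the result was not tested.

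**Figure D5:**
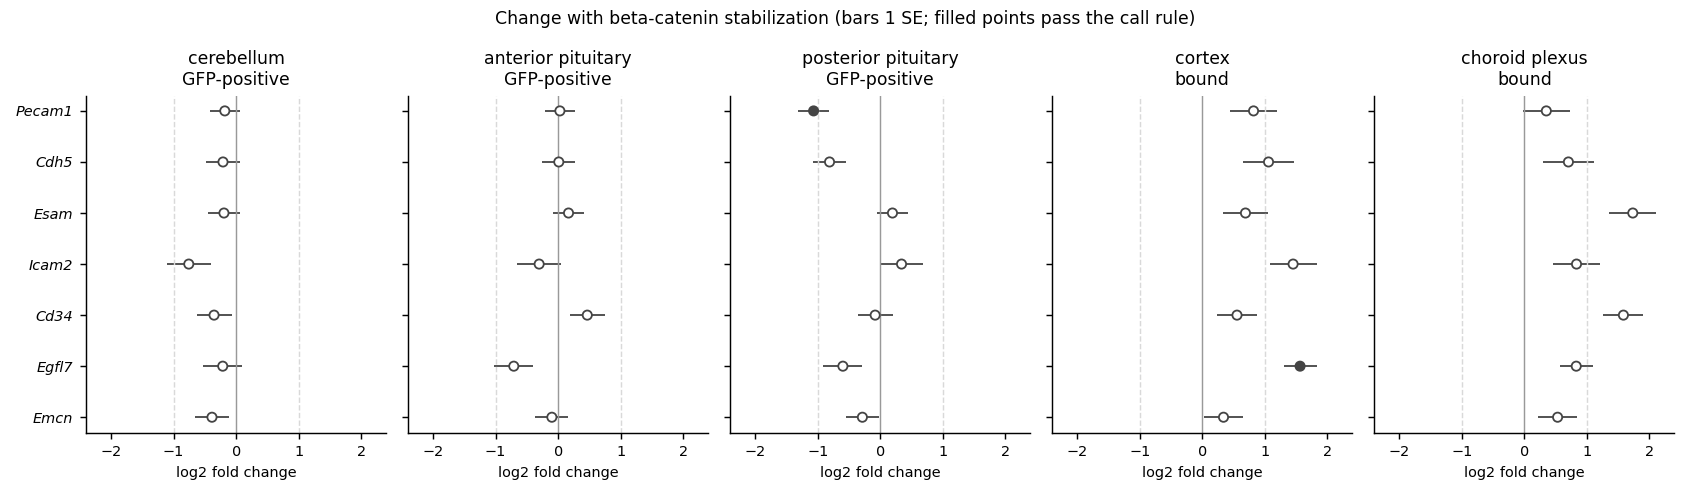
Log2 fold change, stabilized against WT (horizontal axis), of each member (vertical axis) in GFP-positive cells of 3 tissues and in bound RNA of the cortex and choroid plexus, with bars of 1 SE from edgeR and filled points for called members. Pecam1 in the posterior pituitary (-1.07) and Egfl7 in cortex bound RNA (1.56) are filled.

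With all libraries included, no member's genotype change differed between tissues by the interaction test in edgeR. For choroid plexus against cortex bound RNA this depended on which libraries were included. For Pecam1 the change in the posterior pituitary was below that in the cerebellum by a log2 difference of -0.88 (adjusted p = 0.291) and below that in the anterior pituitary by -1.09 (adjusted p = 0.346). The differences ran from -0.50 to 0.82 for the anterior pituitary against the cerebellum, from -0.88 to 1.10 for the posterior pituitary against the cerebellum, from -1.09 to 0.65 for the posterior against the anterior pituitary, and from -0.73 to 1.04 for choroid plexus against cortex bound RNA. The numbers of members at an unadjusted p under 0.05 were 0, 2, 1 and 1, DESeq2 called 0, 0, 1 and 0, and of all genes 0.519, 0.927, 0.128 and 2.15% were called by edgeR and 3.92, 5.96, 2.5 and 6.52% by DESeq2. In the surrounding fractions 0 of 7 members were called by genotype in GFP-negative cells of the cerebellum, anterior pituitary and posterior pituitary, where 0.76, 0.0408 and 0.133% of all genes were, with 1, 0 and 1 members at an unadjusted p under 0.05 and 0, 0 and 1 called by DESeq2, which called 4.91, 1.48 and 4.23% of all genes. In choroid plexus input 0 were called, where 0.106% of all genes were, with 3 at an unadjusted p under 0.05 and 1 called by DESeq2, which called 0.808% of all genes.

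The genes most like each member were sought over the 24 sorted libraries by Pearson's correlation of log2(TPM + 1) among 8963 genes. These libraries share the split into GFP-positive and GFP-negative cells, which any EC gene follows, so the values are a description with no test. Pecam1 was most like Cdh5 (r = 0.993), Cyyr1 (0.993) and Cd93 (0.992), and Cdh5 most like Cd93 (0.996), Cavin2 (0.995) and Mmrn2 (0.993). Icam2 was most like Cd93 (0.989), Mmrn2 (0.986) and Cdh5 (0.985). Emcn was most like Fzd4 (0.978), Gimap5 (0.976) and Cdh5 (0.976), and Cd34 most like Eng (0.981), Cyyr1 (0.980) and BC028528 (0.980). Esam was most like Adgrf5 (0.965), Itm2a (0.965) and BC028528 (0.965), and Egfl7 most like Rai14 (0.972), Cavin2 (0.967) and Card10 (0.967). Over the 16 RiboTag libraries Cdh5 and Cd93 kept r = 0.986, while Egfl7 and Rai14 had 0.708. Among the members the lowest r was 0.917 in sorted libraries, between Esam and Egfl7, and 0.692 in RiboTag libraries, between Pecam1 and Egfl7.

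A list of 26 junction and surface partners, of which 25 were tested in the sorted and bound comparisons, gives the surroundings of the members. Between 16 and 21 of them were enriched in the EC fraction in each of the 10 comparisons. Those enriched in all 10 were Ptprb, the phosphatase of the Cdh5 complex, the sialomucin Podxl, the TGF-beta co-receptor Eng, Robo4, Clec14a, Cd93, the thrombin receptor Thbd and Tie1. Ctnnb1, which encodes beta-catenin, was enriched in 6, and Podxl2, Cd99l2 and Icam4 in none. At most 1 partner was lower in an EC fraction, Podxl2 in the stabilized cerebellum and WT posterior pituitary and Cd99l2 in the choroid plexus of both genotypes.

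Some partners changed with genotype. Cldn5, the main claudin of the blood-brain barrier, rose by 3.10 (SE 0.48, adjusted p = 0.00595) in GFP-positive cells of the posterior pituitary and by 3.19 (SE 0.32, adjusted p = 0.00371) in choroid plexus bound RNA. In the posterior pituitary it stood at 37.2 and 13.2 TPM in WT and 111 and 135 in stabilized cells. Against it, Podxl changed by -1.78 (SE 0.27, adjusted p = 0.00514), Mcam by -1.85 (SE 0.37, adjusted p = 0.027) and Ptprb by -1.53 (SE 0.31, adjusted p = 0.0286) in the same cells, so that 1 partner rose and 3 fell of 25, where 1.79% of all genes were called. In choroid plexus bound RNA, where 0.852% of all genes were called, Cldn5 was the 1 partner called by edgeR, and DESeq2 called 3. In GFP-positive cells of the cerebellum 0 rose and 2 fell of 25, where 0.648% of all genes were called, Ecscr by a log2 fold change of -3.89 (SE 0.50, adjusted p = 0.00349) and Icam1 by -1.82 (SE 0.32, adjusted p = 0.0251). In cortex bound RNA, where 6.32% of all genes were called, 3 of 25 rose and 0 fell, Eng by 1.85 (SE 0.28), Robo4 by 1.61 (SE 0.38) and Tie1 by 1.34 (SE 0.34). This count changed with any WT or stabilized cortex library left out, as did the share of all genes called. Without WT replicate 2 or either stabilized library Eng was at 1.55, 1.73 and 1.89. In the anterior pituitary 0 partners were called by edgeR and 1 by DESeq2, with 0.458 and 2.78% of all genes. In fits of the 4 libraries compared alone, none of the cerebellar or posterior pituitary changes was called. Such fits called 0 to 2.71 times the main number of all genes over 27 comparisons. The numbers for the cerebellum and the posterior pituitary are not given here, so whether this loss is particular to the partners cannot be told. The change of Cldn5 was larger in the posterior pituitary than in the cerebellum by 3.47 (SE 0.64, adjusted p = 0.0259) and in the choroid plexus than in the cortex by 2.09 (SE 0.43, adjusted p = 0.0428). The latter was 1.59 without WT cortex replicate 1 (adjusted p = 0.0263) and 2.52 without replicate 2 (adjusted p = 0.000847). It was not called with the replicate number as a block (2.08, adjusted p = 0.0605), nor without either stabilized cortex library, either WT choroid plexus library or stabilized choroid plexus replicate 2 (1.96 to 2.22, adjusted p = 0.0541 to 0.0947).

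Between WT tissues Cldn5 and Jam3, a junctional adhesion molecule, differed in opposite directions. By read counts Cldn5 was higher in cerebellar ECs than in those of the anterior pituitary by 4.58 (SE 0.51, adjusted p = 0.00011) and than in those of the posterior pituitary by 4.98 (SE 0.52, adjusted p = 1e-04). Jam3 stood at 5.83 and 4.90 TPM in cerebellar ECs, 103 and 126 in the anterior pituitary and 243 and 90.6 in the posterior pituitary, with log2 fold changes in reads of -4.31 (SE 0.91, adjusted p = 0.0135) and -4.37 (SE 0.92, adjusted p = 0.0146). Against the anterior pituitary 2 of the partners were higher in the cerebellum and 5 lower, where 5.26% of all genes were called, and against the posterior pituitary 1 was higher and 8 lower, where 4.4% were, among them Clec14a at -2.20 (SE 0.28) and Mcam at -2.05 (SE 0.37). Counts of partners higher and of partners lower were followed separately over all comparisons and alternative settings. Of these counts 73 moved and 281 stayed the same. With a library left out, 57 of these counts moved and 199 stayed the same. In bound RNA 4 of 25 were higher and 4 lower in the cortex than in the choroid plexus, a share near the 29.7% of all genes called, with Cldn5 again higher, by 2.62 (SE 0.32, adjusted p = 0.000332). These counts changed with either WT cortex library left out, as did the share of all genes called. Without replicate 1, partners lower in the cortex outnumbered those higher.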

How the data were processed

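RNA libraries were amplified with the NuGEN Ovation kit and sequenced for 75 cycles, single-end. The authors quantified them with Salmon 0.10.2 against Ensembl 92 (GRCm38) transcripts with bias correction, and deposited an estimated count and a TPM per transcript. For ATAC-seq the authors used Bowtie2, Picard and MACS2 on mm10, and deposited peak lists with fold enrichment over background and −log10 q-values. Peaks above 2 on both were used.

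Estimated counts and TPM were summed per gene over the 130338 transcripts that matched an annotated gene (402 did not, 0.0588 to 0.385% of counts), and counts were rounded. edgeR 4.0.16 (R 4.3.3) gave quasi-likelihood tests after TMM scaling and filterByExpr, with Benjamini-Hochberg adjustment, in 6 fits (all sorted, GFP-positive, GFP-negative, all RiboTag, bound, input). SE is the log2 fold change divided by the root of F. The scripts were tested on simulated data. EBSeq, the authors' test, was not used; their 2-fold and 0.05 thresholds were. The members, named-gene rule (all members, the 3 most correlated genes of each, and listed partners past the call rule) and marker lists were chosen with earlier results of these data known. GFP-positive and GFP-negative, or bound and input, libraries of 1 number share a preparation, per the methods; their deviations from group means correlated at -0.00378 to 0.0906 in sorted and 0.049 to 0.144 in RiboTag libraries. Genotypes share only a number. The 2 lobes were separated from the same pituitaries, so their libraries can share mice, but lobes were compared as independent; GFP-positive lobe deviations correlated at -0.0129 in WT and 0.0112 in stabilized mice. The methods describe the 2 libraries of a group as biological replicates. The alternatives were DESeq2 1.42.0, RLE scaling, no filter, a replicate block, a gene length offset, the compared groups alone and leaving out each library. No correction for antisense overlap was made, and strand was not stated.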

Additional observations from a re-analysis of the deposited data

How the results depend on the processing

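Enrichment held for 7 of 7 members in all 10 comparisons under DESeq2, RLE scaling, no filter on low counts, the replicate block, the compared groups alone and each left-out library. The gene length offset left 6 of 7 in the WT cortex (Egfl7). In the posterior pituitary the count of 1 went to 0 with the length offset and with the compared groups alone, and to 0 to 1 with a library left out. In cortex bound RNA the count of 1 became 3 by DESeq2 and without the filter, 2 with the groups alone, 0 with the length offset and 0 to 6 with a library left out.

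In cortex input the count of 1 became 2 with the length offset, 0 without Pecam1-208 (Pecam1 at -0.0675, reversed) and 1 to 2 with a library left out. In choroid plexus bound RNA the count of 0 became 2 by DESeq2, 1 with RLE, 2 without the filter and 2 with the groups alone, and in its input 1 by DESeq2 and without the filter. Over 28 comparisons the number of all genes called was 1.07 to 36.4 times the main number with DESeq2. It was 1.09 to 31.4 times without the filter, 0.912 to 1.08 times with RLE and, over 27 comparisons, 0 to 2.71 times with the groups alone. Higher member counts by DESeq2 or without the filter can therefore not be read as particular to the members. DESeq2 called 1 member in GFP-negative cells of the posterior pituitary and 1 in the interaction of posterior and anterior pituitary, and the bound interaction ran from 0 to 2 with a library left out. Cerebellum against posterior pituitary went from 3 to 1 with the length offset and 0 with the groups alone, and cerebellum against anterior pituitary ran from 1 to 2 with a library left out. Anterior against posterior pituitary became 2 by DESeq2 and without the filter, and 0 to 1 with a library left out. Cortex against choroid plexus bound RNA became 4 by DESeq2 and without the filter, 1 with the replicate block and with the groups alone, and 1 to 4 with a library left out. The tissue order held for 4 of 7 members over long transcripts, and 2 of 7 members had a peak in every library at a fold enrichment above 4. The replicate block changed no other count of members called, but among the partners the bound interaction of Cldn5 was not called with it.

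Log2 differences that turned sign were mostly small. With the length offset these were Cdh5 (-0.0746) and Esam (-0.62) by genotype in the anterior pituitary, Icam2 by genotype in the posterior pituitary (-0.0604), Pecam1 in cerebellum against anterior pituitary (0.50, and 0.0117 with the groups alone), Esam in anterior against posterior pituitary (0.72), and Esam (-0.59) and Cd34 (-0.16) in cortex against choroid plexus. Emcn in anterior against posterior pituitary turned to 0.0083 by DESeq2, 0.0084 with RLE, 0.0107 without the filter and 0.0154 with the replicate block. With a library left out, genotype ranges that crossed 0 were, in the cerebellum, -0.37 to 0.0079 for Cdh5 and -0.66 to 0.47 for Egfl7; in the anterior pituitary, -0.0807 to 0.15 for Pecam1, -0.15 to 0.22 for Cdh5, -0.0379 to 0.43 for Esam, -0.65 to 0.19 for Icam2 and -0.34 to 0.12 for Emcn; and in the posterior pituitary, -0.0436 to 0.94 for Icam2, -0.18 to 0.083 for Cd34 and -0.53 to 0.0668 for Emcn. The tissue ranges were -0.18 to 0.13 for Pecam1 in cerebellum against anterior pituitary, -0.77 to 0.22 for Icam2 and -0.45 to 0.0655 for Cd34 in cerebellum against posterior pituitary, and -0.30 to 0.75 for Icam2, -0.27 to 0.0891 for Egfl7 and -0.26 to 0.33 for Emcn in anterior against posterior pituitary. The cause was not tested.

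The number of all genes called moved by over 1.5 times in 22 of 28 comparisons with DESeq2, 16 without the filter, 19 with the length offset, 2 with the replicate block and 16 of 27 with the groups alone. The median of all genes moved by over 0.1 (log2) in 3 comparisons with DESeq2 and 3 with RLE, by at most 0.12 in each, in 9 without the filter and 6 with the length offset, by at most 0.33 in each, and in 5 with the groups alone, by at most 0.31. Each group held 2 libraries, and the size of the sorted enrichments rests on few GFP-negative counts.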
